A study of Mus musculus with 3 samples.

Results

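The regions described here are open chromatin sites called in mouse oligodendrocyte progenitors for which no site was called after 1 day of differentiation, in either Seh1cKO or control cells. A member is an autosomal progenitor peak chosen by a summit pileup of at least 0.8 fragments per 1000000 fragments of the library (FPM) and by being overlapped by not a single base of a peak in either day 1 list. The rule left 2405 members of 34445 autosomal progenitor peaks at that level, which is 6.98% (exact Clopper-Pearson 95% interval 6.72% to 7.26%, counting error only). The other 32040 peaks are called kept peaks below, because a day 1 peak overlapped them. Of these, 26590 were overlapped in both day 1 libraries, 835 in the Seh1cKO library alone and 4615 in the control day 1 library alone.

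The study profiled chromatin accessibility in 3 ATAC-seq libraries, 1 per group, in which a transposase inserts sequencing adapters into exposed DNA. Seh1cKO day 1 cells carry a conditional knockout of Seh1, a nucleoporin, and were grown for 1 day with the thyroid hormone T3 at 60 nM and without PDGF-AA, bFGF and NT3. Control day 1 cells, labelled wild type, had the same treatment, and the control progenitors, also labelled wild type, were kept in 20 ng/ml PDGF-AA, 20 ng/ml bFGF and 1 ng/ml NT3. Day 0 was read from the letters DO that close the progenitor sample's name. All 3 groups came from cortices of C57BL/6 mice at postnatal days 4 to 7, purified by immunopanning for O4 after depletion of GalC-positive cells, and CNTF at 10 ng/ml was part of the growth medium. The Cre driver and the deleted part of Seh1 are not given in the sources used here, nor is the number of animals per library. Seh1cKO progenitors were not analysed here. Each group is a single library, so replicate error could not be measured, and differences below are given without p-values.

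Oligodendrocyte progenitors divide in response to growth factors such as PDGF and leave the cell cycle when these are withdrawn, and thyroid hormone promotes their maturation into myelin-forming oligodendrocytes. Promoters and enhancers that are bound by transcription factors are depleted of nucleosomes and are therefore cut more readily by the transposase. Promoters of broadly expressed genes tend to be open at every stage of a lineage, while many distal elements are open at particular stages.

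A few members covered the start of a gene, and 3 of those starts are printed to show what such a site holds, with a further promoter window, of Gm40367, that a member overlapped upstream of the start. Sequences are RefSeq windows of GRCm38.p6, whose main chromosomes share coordinates with mm10, from 250 bases before to 50 bases after the start, read in the direction of the gene. Gpr37 encodes a G protein-coupled receptor of oligodendrocytes, Chl1 a cell adhesion molecule of the L1 family and Cgref1 a secreted calcium-binding protein. E-boxes, with the core CANNTG, are the sites of basic helix-loop-helix factors such as Olig2. Capitals mark 3 forms of this core, searched on both strands, and its other forms were neither searched nor marked. The form CAGCTG was found in 15.6% of 20085 RefSeq promoter windows on the autosomes, the form CAGATG in 14.6% and the form CATATG in 2.89%. A match describes letters and not a bound site.
Gpr37 promoter, chr6:25689931-25690230, minus strand: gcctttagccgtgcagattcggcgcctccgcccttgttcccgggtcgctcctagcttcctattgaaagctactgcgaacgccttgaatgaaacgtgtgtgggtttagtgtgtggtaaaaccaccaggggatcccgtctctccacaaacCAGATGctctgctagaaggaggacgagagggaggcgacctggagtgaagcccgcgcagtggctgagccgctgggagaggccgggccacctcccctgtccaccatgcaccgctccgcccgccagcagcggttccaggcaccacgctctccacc
Chl1 promoter, chr6:103510626-103510925, plus strand: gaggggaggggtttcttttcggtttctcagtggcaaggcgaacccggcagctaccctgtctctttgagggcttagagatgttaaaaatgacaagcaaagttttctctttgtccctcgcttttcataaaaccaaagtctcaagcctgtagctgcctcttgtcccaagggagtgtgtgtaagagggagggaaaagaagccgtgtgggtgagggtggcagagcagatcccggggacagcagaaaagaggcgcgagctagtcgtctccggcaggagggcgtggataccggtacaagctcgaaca
Cgref1 promoter, chr5:30945378-30945677, minus strand: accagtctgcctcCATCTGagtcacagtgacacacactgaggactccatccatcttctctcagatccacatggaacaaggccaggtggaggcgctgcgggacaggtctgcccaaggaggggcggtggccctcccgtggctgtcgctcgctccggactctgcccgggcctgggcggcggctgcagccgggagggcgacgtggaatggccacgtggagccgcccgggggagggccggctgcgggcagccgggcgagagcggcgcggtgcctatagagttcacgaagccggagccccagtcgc
Gm40367 promoter, chr6:47662342-47662641, plus strand: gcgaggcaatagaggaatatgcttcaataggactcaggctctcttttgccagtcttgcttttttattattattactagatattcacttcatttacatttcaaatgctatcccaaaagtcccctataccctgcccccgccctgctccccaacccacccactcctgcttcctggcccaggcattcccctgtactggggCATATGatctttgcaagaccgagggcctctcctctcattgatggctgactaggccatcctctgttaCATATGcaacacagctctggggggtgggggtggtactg

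The Gpr37 window lay whole within a member of 574 bp with a pileup of 32 fragments (1.37 FPM). The nearest control day 1 peak was 2563 bp away. The Chl1 window lay within a member of 384 bp with a pileup of 29, and the Cgref1 window within a member of 525 bp with a pileup of 25. Control day 1 peaks lay 587 bp from the Chl1 member and 572 bp from the Cgref1 member. The windows of Gpr37, Chl1 and Cgref1 had the highest pileup among 10 windows that a member covered whole with its summit inside, a criterion added after the values were seen. The other 7 belonged to Wdr83 and Wdr83os, which share 1 member, and to Il6ra, Gna14, Abr, Cdkl4 and Igtp. Gm40367, a predicted gene, was the one window overlapped among the 10 members of highest pileup in gene-end windows. Its member of 121 bp covered 114 of the 300 bases. Among the printed windows the count of the 3 searched E-box forms was 1 for Gpr37, 0 for Chl1, 1 for Cgref1 and 2 for Gm40367.

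Members were weak peaks. Pileup and absence at day 1 chose them, so their levels are given as a description. Their median pileup was 21 fragments, or 0.897 FPM, against 34 fragments, or 1.45 FPM, in kept peaks. The share of peaks that were members was 19.0% between 0.8 and 1 FPM, 6.49% between 1 and 1.5, 1.36% between 1.5 and 2 and 0.232% between 2 and 3. Thus 1656 members lay in the lowest interval, 661 in the next, and 21 reached 2 FPM. Just inside the threshold, at a pileup of 19 fragments, 527 of 2168 autosomal progenitor peaks had no day 1 overlap. Just outside it, at 18 fragments (0.769 FPM), 799 of 2503 had none. Examples just inside were peaks of 240 bp near Cnot11, which encodes a CCR4-NOT deadenylase subunit, of 359 bp in Erbb4, a neuregulin receptor, and of 158 bp in Spag16. Examples just outside were peaks of 399 bp near Atp6v1h, 192 bp near Pcmtd1 and 226 bp in Vxn, each with a fold enrichment of 5.31 over the local background.

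The 3 lists differ in depth, which bears on an absence. The Seh1cKO day 1 list held 46113 peaks from 10845533 fragments, the control day 1 list 118441 peaks from 18260883 fragments and the progenitor list 108788 peaks from 23403600 fragments, per the file headers. The weakest peak called had 6, 8 and 9 fragments in that order. Scaled to each library's depth and set against its own progenitor background, the level of 2399 of 2405 members would have passed the weakest p-value called in control day 1 cells. In Seh1cKO cells 2016 members (83.8%) would have passed. The remaining 389 would have missed it in Seh1cKO cells at an unchanged level. The median scaled pileup was 9.73 fragments for Seh1cKO cells and 16.4 for control day 1 cells. This scaling takes each level as exact, without sampling error and without the minimum length of a call. Members were also chosen for their pileup, so how many absences come from depth was not tested. Used the other way round, the same threshold and overlap gave 1852 of 35635 peaks (5.20%) in the Seh1cKO day 1 list without a counterpart in the other lists, and 10335 of 50032 (20.7%) in the control day 1 list.

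Members were narrow at every level. Their median width was 238 bp (quartiles 172 and 325 bp, 95% interval of the median 232 to 243 bp), against 525 bp in kept peaks (quartiles 357 and 720 bp). Width follows pileup, so it was also read within intervals. Between 0.8 and 1 FPM the medians were 233 bp in members and 328 bp in kept peaks, and between 1 and 1.5 FPM 250 and 444 bp. Between 1.5 and 2 FPM the medians were 260 bp in 67 members and 574 bp in 4869 kept peaks. The gap between the medians was wider in each higher interval. The rule itself bears on width, because a wider peak offers more bases for a day 1 peak to overlap. When a larger overlap was asked before a peak counted as kept, the median width of members was 309 bp. What part the rule had in the width gap, at any level, was not tested. Under 200 bp were 35.8% of members and 5.27% of kept peaks, and 96.3% of members and 46.2% of kept peaks were under 500 bp.

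**Figure D1:**
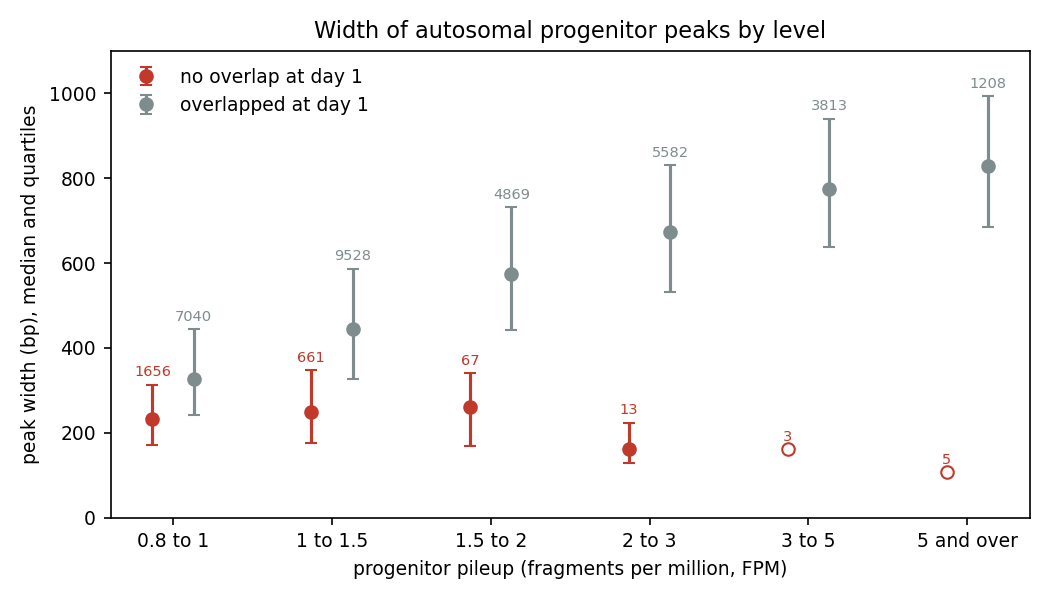
Width in bp (median and quartiles) of autosomal progenitor peaks in 6 intervals of pileup in FPM, for peaks without a day 1 overlap (red, left) and with one (grey, right). Numbers count the peaks, and open circles are medians of groups of 5 or fewer without quartiles. Red medians stay at or under 260 bp while grey medians climb to 828.5 bp.

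The widest member was also the strongest by q, and it lay on Olig2, the transcription factor that specifies the lineage. It spanned chr16:91226416-91227340 on mm10 (925 bp) with a pileup of 205 fragments, 8.76 FPM, a fold enrichment of 5.47 and a −log10 q of 78.2. Its summit lay 1022 bp inside the gene from the start. The nearest day 1 peaks, at the start of the gene, were 634 bp away at 5.07 FPM in Seh1cKO cells and 637 bp away at 4.60 FPM in control cells. The progenitor peak at the start of the gene reached 3.76 FPM. A second member of 136 bp and 1.54 FPM lay 3757 bp past the gene. It stood beside a site that was called at 2.95 FPM in Seh1cKO day 1 cells, 7.01 in control day 1 cells and 4.40 in progenitors. The Olig2 locus, taken here as the gene and 10000 bp either side, held 5 progenitor peaks at the threshold, 2 of them members. The other genes of the study's title had no member: Seh1l had 0 of 3 peaks and Brd7, a bromodomain protein, 0 of 1.

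**Figure D2:**
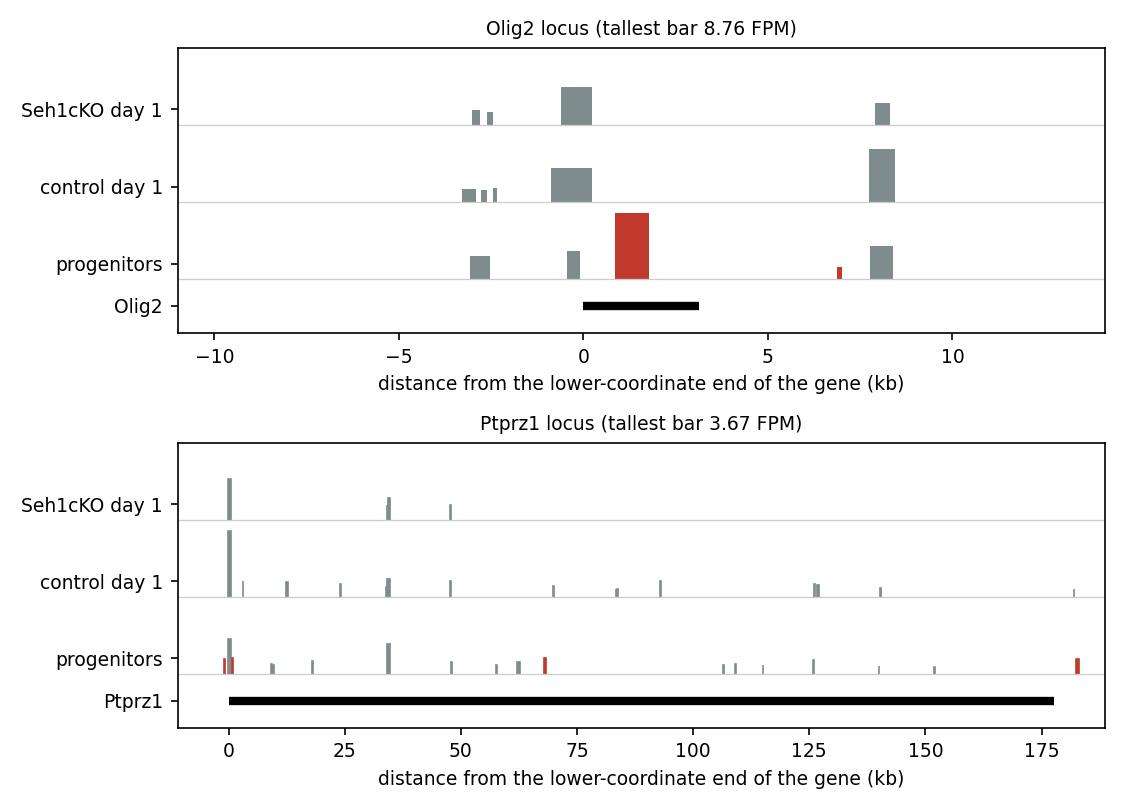
Called peaks at the Olig2 and Ptprz1 loci in Seh1cKO day 1, control day 1 and progenitor libraries, from top to bottom, by distance in kb from the end of the gene with the lower coordinate. Bar height is pileup in FPM scaled to the tallest bar of each panel, red bars are members, grey bars all other called peaks and the black line is the gene. The 8.76 FPM progenitor bar inside Olig2 has no bar above it in either day 1 library.

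The next widest members were 896 bp in Zswim6, 842 bp in Mthfd1l, a mitochondrial folate enzyme, and 806 bp each in Ralgps2, an activator of Ral GTPases, and Ank2, which encodes ankyrin-B. Further members among the 10 widest lay in Rin2 (767 bp), Trpm3 (762 bp), Gpc6 (716 bp) and Psd3 (713 bp), and 4777 bp from Ptprz1 (755 bp). These 9 had pileups of 19 to 30 fragments. All but the ones near Olig2 and Ptprz1 were inside genes, away from the gene-end windows.

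High pileup in members mostly came with a high local background. The background at a summit, computed as (pileup + 1) divided by the fold minus 1, had a median of 4.11 fragments in members and 3.90 in kept peaks. Of the 21 members at 2 FPM or more, 19 had a fold under 4, with backgrounds reaching 297 fragments. The 4 with the highest pileup (435, 421, 325 and 313 fragments) lay within a stretch of chromosome 9 near 3 Mb, over 300 kb from the nearest protein-coding gene, Alkbh8. Their folds were 1.46 to 1.65, their widths 100 to 119 bp, and day 1 peaks of 10.4 to 58.1 FPM lay 123 to 876 bp away. Sfi1, which encodes a centrin-binding centrosome protein, held 6 more of the 25 members of highest pileup, and a stretch near the predicted gene Gm40363 held 3. Among those 25 were also members near Mef2c and Mbnl2, a transcription factor and a splicing regulator, both at 46 fragments, and a member in Zyx at 46 fragments whose nearest control day 1 peak was 26 bp away.

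Ranked instead by q, after the values were seen, the leading members after the one on Olig2 lay away from gene ends, most of them on low background. The next was near Trib1, a pseudokinase gene, at chr15:59633624-59634145, with 64 fragments, a fold of 9.16 and a background of 6.09 fragments, 14509 bp from the gene. A control day 1 peak lay 849 bp from it. A member 54641 bp from Pappa2, a protease of insulin-like growth factor binding proteins, had 45 fragments and the highest fold of all, 12.8. The nearest control day 1 peak was 26585 bp away. Next came members in Klhl29 (44 fragments, fold 9.97), near Tha1 (38, fold 10.5) and in Hmcn1 (37, fold 10.6), an extracellular matrix gene. Members in Pdlim5, a scaffold protein gene, and in Mecom, a zinc finger transcription factor gene, had 35 and 36 fragments with widths of 554 and 661 bp. A member of 309 bp lay 1467 bp from Aspa, the aspartoacylase of oligodendrocytes, with 32 fragments and a fold of 9.17. It was the one progenitor peak at the threshold in that locus, and the nearest control day 1 peak was 18498 bp away.

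Many members sat beside a day 1 peak without touching it. The median distance to the nearest Seh1cKO day 1 peak was 3143 bp, and to the nearest control day 1 peak 1361 bp. A control day 1 peak lay within 1000 bp of 1067 members (44.4%) and within 50 bp of 119. In 717 of those 1067 (67.2%) the neighbouring day 1 peak overlapped another progenitor peak, so the member was an extra call next to a site found at both stages. A further 1039 members had their nearest control day 1 peak farther than 1000 bp but within 10000 bp, and 299 had none within 10000 bp.

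These 3 classes, set after the values were seen, differed in form and place. Members within 1000 bp of a control day 1 peak had a median width of 213 bp, a background of 5.75 fragments and a fold of 3.44. Members with that distance from 1000 to 10000 bp had medians of 254 bp, 3.45 fragments and 5.12. The 299 isolated members had medians of 296 bp, 2.58 fragments and 5.86, where 2.58 is the lowest background in the list. A −log10 q of at least 10 was reached by 126, 271 and 135 members of the classes in this order, although the isolated class was the smallest. Gene-end windows held 30.1% of the first class, 8.18% of the second and 2.34% of the third. The caller took its local background over 10000 bp, the distance that also bounds the isolated class. Background, fold and q are therefore not independent of how the classes were cut. What part the cut had in these differences was not tested.

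**Figure D3:**
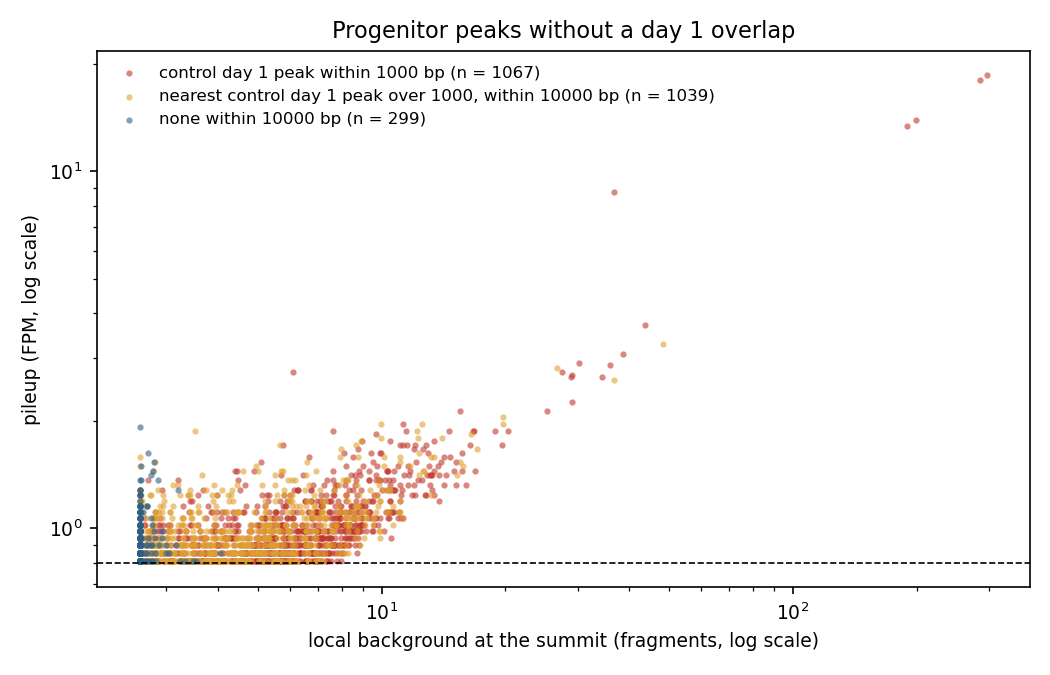
Pileup in FPM against local background in fragments for 2405 members, both on log scales, coloured by distance to the nearest control day 1 peak. The dashed line is the 0.8 threshold. Isolated members (blue) crowd at the lowest background of 2.58 fragments, and the 4 members over 10 FPM stand at backgrounds of 190 to 297 fragments.

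Members lay at gene ends less often than kept peaks did. A gene-end window, 1000 bp either side of an annotated end of a protein-coding gene, held 413 members (17.2%, interval 15.7% to 18.7%), against 34.9% of kept peaks. Inside genes, away from the ends, lay 1109 members (46.1%), against 37.5% of kept peaks, and outside genes 883 members (36.7%), against 27.6%. The gap was smaller in the 2 lowest intervals of level and wider above them. Between 0.8 and 1 FPM gene-end windows held 15.6% of members (13.9% to 17.4%) and 19.3% of kept peaks (18.4% to 20.3%). Between 1 and 1.5 FPM they held 21.9% (18.8% to 25.3%) and 27.0% (26.1% to 27.9%). Between 1.5 and 2 FPM they held 9 of 67 members (13.4%, interval 6.33% to 24.0%) and 38.3% of kept peaks, and between 2 and 3 FPM 0 of 13 members (interval up to 24.7%) and 46.9% of kept peaks. The median distance to the nearest gene end was 11062 bp in members and 7653.5 bp in kept peaks. Its order turned in the 3 lowest intervals, with 14647.5 bp in members and 17038 bp in kept peaks between 0.8 and 1 FPM, 5709 and 11936.5 bp between 1 and 1.5, and 3235 and 5418 bp between 1.5 and 2. In the 13 members between 2 and 3 FPM the median was 5239 bp, against 2007 bp in kept peaks, and members were also farther from gene ends in the 2 intervals above, which hold 3 and 5 members.

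The difference was sharpest at the transcription start itself. A RefSeq start lay within 250 bp of the summit in 86 of 2333 members (3.69%, interval 2.96% to 4.53%) and in 24.2% of kept peaks. Starts on chromosome 18 were not used here, and its 72 members were left out. Within intervals of level the shares were 2.92% of members and 8.51% of kept peaks between 0.8 and 1 FPM, and 5.30% and 15.8% between 1 and 1.5. Just past the start the order turned. From 250 to 1000 bp downstream lay 7.76% of members and 3.76% of kept peaks, and from 1000 to 2000 bp downstream 4.80% and 1.70%. From 2000 to 10000 bp upstream lay 6.60% of members and 3.99% of kept peaks.

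**Figure D4:**
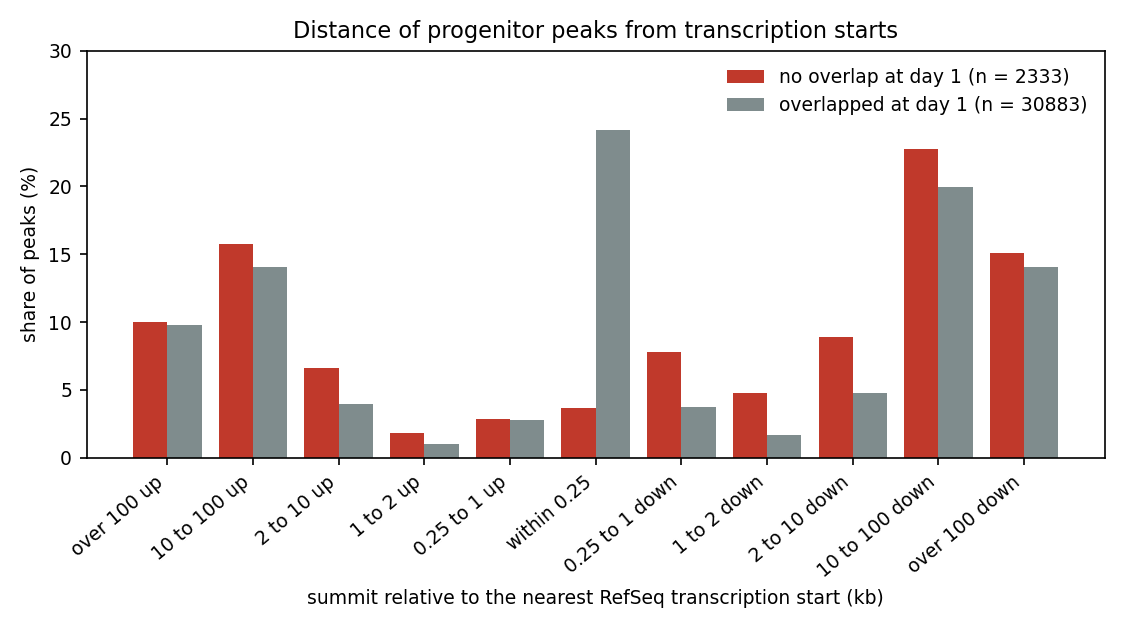
Share in % of progenitor peaks by signed distance in kb of the summit from the nearest RefSeq transcription start, for 2333 members (red, left bars) and 30883 kept peaks (grey, right bars). The centre bar holds 3.69% of members and 24.2% of kept peaks, and members stand higher from 0.25 to 10 kb downstream.

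The 10 gene-end members of highest pileup lay on both sides of starts. The summits at Olig2 and Zyx were 1022 and 791 bp downstream of a start. Next came Npas3, a neuronal transcription factor gene, whose member of 537 bp and 44 fragments had its summit at -1655 bp from the nearest start, where a negative distance is upstream. Members at Smarca5, the ATPase of ISWI chromatin remodellers, at Ddit4, a stress-induced inhibitor of mTORC1, and at Fbxo44, an F-box protein gene, had summits 1052, 922 and 370 bp downstream of a start. Their nearest control day 1 peaks were 366, 494 and 371 bp away and reached 10.1, 7.45 and 6.63 FPM. The summit at Gm13276, with 44 fragments, lay 208 bp downstream of a start, and that at Gm40367, with 36 fragments, at -175 bp. The summit at Zfp462, with 39 fragments, lay 702 bp from a gene end, and that at Ankhd1, with 37 fragments, 600 bp from one.

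Promoter windows touched by members had fewer CG pairs than those touched by kept peaks. Members touched 99 windows of 92 genes, with medians of 57.7% GC and 14 CG pairs, against 62.7% and 23 in 10022 windows touched by kept peaks and 57.0% and 14 in all 20085 windows. Of 13 motifs searched on both strands, CCGGAA (ETS factors) was in 17.2% of member windows (10.3% to 26.1%), 31.0% of kept windows and 19.1% of all windows. GGGCGG (SP factors) was in 51.5%, 69.7% and 47.0%, and CCAAT (NFY) in 25.3%, 39.9% and 38.1%. CAGCTG was in 17.2%, 14.3% and 15.6%. CAGATG was in 12.1%, 10.1% and 14.6%, and the AP-1 site TGANTCA in 5.05%, 3.75% and 7.06%. These windows were not split by level, and kept peaks were stronger (median 1.45 against 0.897 FPM). What part level had in the differences was not tested.

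Members were spread over many genes. They had 1878 different nearest protein-coding genes, and 1430 members (59.5%) overlapped a protein-coding gene, against 69.9% of kept peaks. Over 100 kb from any such gene lay 210 members (8.73%), against 8.01% of kept peaks. At least 1 member lay in the locus of 1987 of 20665 autosomal protein-coding genes (9.62%), or 13.6% of the 14641 with a progenitor peak at the threshold there. Of these genes 1667 had 1 member, 253 had 2 and 67 had more.

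Among the loci with the most members, several held runs of close calls. Sfi1 had 8 of 30 peaks, 6 of them in a run of 12559 bp that also counts for the neighbouring loci Gm51877 (5 members) and Eif4enif1 (4 members), the second a partner of the cap-binding protein eIF4E. Gm15319 had 5 of 8 peaks, Mroh2a 5 of 6, Gm21190 4 of 5, Tmem267 4 of 10, and Duxf3 and LOC100504180 shared 4. In genes of the nervous system Npas3, 824148 bp long, had 5 of 29, spread along the locus, and Kcnip3, a calcium-binding channel partner, 4 of 10. Qk, the RNA-binding protein quaking that is needed for myelin, had 4 of 8. Those with folds of 2.37 to 2.83 lay 7695 to 9061 bp outside Qk, with control day 1 peaks 133 to 481 bp away. The last, with a fold of 4.66, lay inside Qk. Called peaks of any level in the Qk locus were 2 in Seh1cKO day 1 cells and 31 in control day 1 cells, from lists of 46113 and 118441 peaks. In the Mroh2a locus these counts were 0 and 13. What part depth had in these counts was not tested. Along chromosomes 163 runs of members no more than 10000 bp apart held 381 members (15.8%). Chromosome 8 had the highest share of members among its peaks at the threshold, 9.42%, and chromosome 16 the lowest, 5.53%. A stretch at chr8:20057801-20583761 held 38 members of 84 such peaks and one at chr5:14988174-15610637 held 25 of 49. In these 2 stretches the member medians were folds of 2.74 and 3.40 on backgrounds of 8.24 and 6.67 fragments.

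Gene lists of the lineage were read as the share of progenitor peaks in their loci that were members, beside 6.98% over all peaks. The intervals count peaks of the same locus as independent, and the lists were chosen with earlier results known. They describe the counts and are no test of a list. In loci of 30 progenitor genes 25 of 206 peaks were members (12.1%, interval 8.01% to 17.4%), from 14 genes. The strongest by pileup lay in Lhfpl3 with 40 fragments, in Megf11 with 29 and at C1ql1, a secreted synaptic protein gene, with 29. Their folds were 3.15, 6.83 and 4.26, and their nearest control day 1 peaks were 537, 7075 and 1067 bp away. Ptprz1, a receptor phosphatase of progenitors, had 4 members among 6 peaks. Of these, 2 flanked the peak over the start of the gene at 0.812 and 0.897 FPM, with control day 1 peaks 702 and 246 bp away, 1 of 334 bp lay within the gene, and 1 lay past its end. Sox5, a transcription factor that holds back maturation, had 4 of 24, 1 of them of 361 bp and a fold of 8.10, whose nearest control day 1 peak was 8657 bp away. Nkx2-2, a homeodomain factor of the lineage, had 4 of 11, with folds of 2.30 to 3.12 and control day 1 peaks 121 to 579 bp away. Pdgfra, the receptor for PDGF-AA, had 1 of 8, a peak of 485 bp and 27 fragments 451 bp from the gene, with a Seh1cKO day 1 peak 412 bp and a control day 1 peak 1579 bp away. In this list and those below, names beyond the 3 strongest members were chosen after their values were seen.

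In loci of 29 lineage regulators 26 of 184 peaks were members (14.1%, interval 9.44% to 20.0%), from 13 genes, 4 of them the Nkx2-2 members already counted. After Olig2 the strongest lay near Sox4, a SoxC transcription factor of immature cells, with 36 fragments, and in Tcf4, an E protein that pairs with Olig2, with 33. The Sox4 and Tcf4 members had folds of 3.52 and 3.53, and control day 1 peaks lay 446 and 507 bp away. A −log10 q of at least 10 was reached by 2 of the 26 members of this list, against 532 of all 2405. The nuclear factor I gene Nfib had 4 of 16, Nfix 3 of 13 and Nfia 2 of 24. Myrf, the activator of myelin genes, had 1 of 4, with 19 fragments. In loci of 30 growth factor and immediate early genes 17 of 107 peaks were members (15.9%, interval 9.54% to 24.2%), from 13 genes. Jun had members of 44 and 23 fragments, Spry2, a feedback inhibitor of receptor tyrosine kinases, members of 35 and 33, and Fos and Ier2 members of 34 each. Their folds were 2.09 to 3.45. The median background over the 17 members was 8.87 fragments, against 4.11 over all members. Spred1, an inhibitor of Ras signalling, differed, with a member of 495 bp, 28 fragments and a fold of 8.10 on a background of 2.58.

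**Figure D5:**
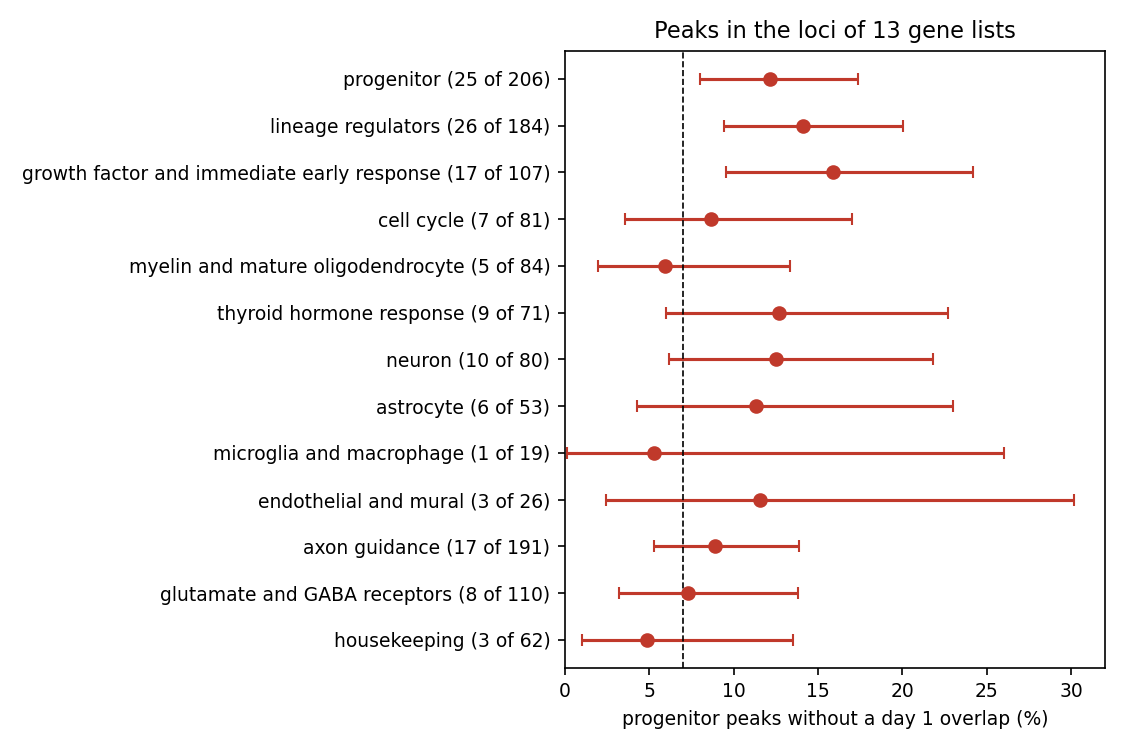
Share in % of progenitor peaks at the threshold that had no day 1 overlap, in the loci of 13 gene lists, with exact 95% binomial intervals that cover counting error only. Numbers in brackets are members of peaks, and the dashed line is 6.98% over all autosomal peaks. The intervals count peaks of the same locus as independent and are no test of a list. Those of the progenitor, lineage regulator and growth factor lists lie above the line, and those of the other 10 lists include it. The thyroid hormone response and neuron lists have higher shares than the progenitor list, on fewer peaks.

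The other lists had shares whose intervals included 6.98%, but the width of an interval follows the number of peaks, so the lists are not set apart by this. Thyroid hormone response loci (12.7% of 71 peaks) and neuronal loci (12.5% of 80) had higher shares than progenitor loci (12.1% of 206). In loci of thyroid hormone response genes 9 of 71 peaks were members (12.7%), among them Klf9, a direct target of T3, with members of 25 and 19 fragments. Cell cycle loci had 7 of 81 (8.64%), in those of Aurkb, Ccnd2, Ccnd3, Cdkn1b and Mki67. The highest pileup there was 26 fragments, near Aurkb. Myelin loci had 5 of 84 (5.95%), in those of Aspa, Cnp, Anln, Trf and Myrf, with 19 to 32 fragments. The member of the Cnp locus lay inside another gene, 4094 bp from Cnp. Axon guidance loci had 17 of 191 (8.90%), with 40 fragments near Efna5, 29 in Unc5c and 28 in Nrp1. Glutamate and GABA receptor loci had 8 of 110 (7.27%), with 33 fragments near Grik3 and 27 in Grm8. Housekeeping loci had 3 of 62 (4.84%), in those of Actb, Aldoa and Gapdh.

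Markers of other brain cells were counted in the same way and assign no cell type. Neuronal loci had 10 of 80 (12.5%), with 23 fragments in Map2 and 20 each in Rbfox3, Syt1 and Nrxn3. Astrocyte loci had 6 of 53 (11.3%), with 26 fragments near Aldoc, 24 near Agt and 24 in Fgfr3, which the growth factor list also holds. Endothelial and mural loci had 3 of 26 (11.5%), at Vwf and Mfsd2a, and microglial loci 1 of 19 (5.26%), at Cd68. A progenitor peak at the threshold lay in 29 of 30 progenitor loci, 24 of 28 myelin loci, 19 of 23 neuronal loci, 17 of 20 astrocyte loci, 13 of 22 microglial loci and 13 of 24 endothelial and mural loci. What part other cells had in the members was not tested.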

How the data were processed

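A commercial transposase kit was applied to 50000 cells for each library, per the labels' protocols. The submitters' processing notes name the build mm10 and the tools Bowtie2, SAMtools and MACS2. The authors called peaks library by library, per the file headers, using MACS 2.1.2_dev with paired-end fragments, keeping duplicates, without a control library, at a q cutoff of 0.05, with a maximum gap of 50 bp and a minimum length of 100 bp. Shifting of reads for the transposase and removal of artefact regions are both not given in the sources used here. Deposited tables hold pileup signal in fragments, the −log10 of p-value and q-value, and the fold enrichment as a ratio to local background. The names of both −log10 columns are damaged. The p column was identified by recomputing Poisson p-values from pileup and fold, which came within 0.01 for at least 99.9% of peaks, and the q column by its place. These scores are the authors' and serve to describe and rank peaks within a list. Kept duplicates can raise a pileup, and peaks of the 3 lists were never compared by rank.

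Pileup was divided by the fragments in the header and multiplied by 1000000 (FPM). Overlaps (1 bp), distances and positions in RefSeq genes of GRCm38.p6 were computed in Python 3.11.15 with numpy 2.4.6, pandas 2.3.3 and scipy 1.17.1, and the code was tested on simulated data. Intervals are exact Clopper-Pearson or order-statistic 95% intervals and cover counting error only. A genome was not used here, so no sequence of the members themselves was read, and motifs were counted in RefSeq promoters alone, which cover 16457 of the 20665 autosomal protein-coding genes. Named regions are the 25 of highest pileup, the 10 widest, the 10 strongest at gene ends, the 3 nearest the threshold on each side, the 3 of highest and lowest fold, the 12 genes with most members, the 3 strongest of each of 13 gene lists and the genes of the study's title, with additions marked in the text. The members, lists and tests were chosen with earlier results of these data known. Alternatives changed the threshold, the overlap, the day 1 list, the gene windows and the annotation.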

Additional observations from a re-analysis of the deposited data

How the results depend on the processing

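The main values were 2405 members, 17.2% at gene ends, 46.1% inside genes, 36.7% outside genes, a median width of 238 bp, 11062 bp to the nearest gene end and 1987 genes with a member. A threshold of 0.6 FPM gave 8613 members, 11.6% at gene ends, 41.4% outside genes, 212 bp and 18246 bp. At 1 FPM there were 749 members, with 20.7%, 33.8%, 248 bp and 5131 bp, and at 1.5 FPM 88, with 11.4%, 43.2%, 225 bp and 3961 bp. Widening day 1 peaks by 250 bp gave 11.9% at gene ends, 40.4% outside genes, 245 bp and 14438 bp, with 1848 members left. Widening by 1000 bp left 1285, with 6.61% at gene ends, 48.7% inside genes, 44.7% outside genes, 263 bp and 20256 bp. Asking a day 1 overlap of at least 50% of the progenitor peak gave 4767 members, 309 bp and 13406 bp. Absence from the Seh1cKO list alone gave 7020 members, 49.9% inside genes, 34.0% outside genes, 288 bp and 13043.5 bp. Absence from the control day 1 list alone gave 257 bp and 13288 bp. With the control day 1 list shortened to the length of the Seh1cKO list there were 3924 members of 260 bp. A −log10 q of at least 10 left 532, with 6.58% at gene ends, 47.4% outside genes, 318 bp and 28384.5 bp. A background under 6 fragments, chosen after seeing the data, left 1705, with 12.2% at gene ends, 40.1% outside genes, 265 bp and 18460 bp. Gene-end windows of 500 bp held 8.69% of members, with 52.8% inside genes, and windows of 2500 bp held 29.4%, with 37.2% inside and 33.5% outside genes. Counting all annotated genes gave 24.5% at gene ends, 49.7% inside, 25.8% outside and 4499 bp. Windows of 1000 bp about a RefSeq start, also chosen after seeing the data, held 14.3%. The gene alone gave 1271 genes with a member, and 50000 bp either side 3880. The cause of these shifts was not tested, beyond the rule itself taking more or fewer peaks. Of 83 alternative values 25 stayed within 1.5 times the main count or within its interval.

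No paired analysis was possible because each group has 1 library, and no replicate was left out for the same reason. Most members lie near the threshold of the rule, where counting error bears on which peaks are taken. The lists hold no signal where no peak was called, so an absent peak is no measured 0. Progenitor stage, day of culture and library cannot be told apart.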

Other observations

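Members overlapped 3 of 919 annotated autosomal miRNA hairpins: Mir1897, 11310 bp from Sox2, Mir7237 in Banp and Mir688 near Atp5g2. Their pileups were 27, 19 and 30 fragments, and control day 1 peaks lay 21, 1470 and 30 bp away.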
